A study of Mus musculus with 3 samples.

Results

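The voltage-gated sodium and calcium channel genes were taken as all protein-coding genes of the mouse GENCODE annotation (release M21, genome build GRCm38) whose symbols begin with Cacna, Cacnb or Cacng, or with Scn and a digit. The rule used no measured value and gave 40 genes among 21938 protein-coding genes. Of these, 26 carried calcium channel symbols and 14 carried sodium channel symbols. A TRα1 binding site, hereafter a site, was linked to a gene when its summit lay inside the gene or within 30 kb of the annotated 5′ end of the gene on either side. Of the 23988 sites in the list, 190 were linked to at least 1 of the 40 genes.

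The sites came from ChIP-seq of the thyroid hormone receptor TRα1 in the striatum of untreated euthyroid male C57BL/6J mice, aged 8 weeks, whose GABAergic neurons expressed TRα1 with a GS tag. The series held 2 ChIP libraries and 1 input library, all from mice of this genotype, and the processed data were 1 peak list without values per library. The driver that restricted the tagged receptor to GABAergic neurons was not given in the sources used here. Because no value belonged to a single library, no difference between genes could be set against the variation between animals and no test was run. Ranges in percent are 95% Wilson intervals, which take in counting error alone, and sites of 1 gene are not replicates. Read depth per library was not analysed here, and neuronal markers cannot be measured in a list of sites.

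Voltage-gated channels turn a change in membrane potential into an ion current. Sodium channels consist of a large pore-forming α subunit, which carries the upstroke of the action potential, and of β subunits that alter gating and anchor the channel. Calcium channels have a pore-forming α1 subunit of the Cav1 (L-type), Cav2 (presynaptic) or Cav3 (low-threshold T-type) class, together with β and α2δ subunits that bring the pore to the membrane. Some proteins of the γ family, the TARPs, serve AMPA receptors rather than calcium channels. GABAergic projection neurons of the striatum express many of these genes. TRα1 binds DNA mainly as a heterodimer with RXR at pairs of the half-site AGGTCA, of which the direct repeat with a 4 bp spacer, DR4, is the preferred arrangement.

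Most of the channel genes had TRα1 sites, and the sites were distributed unevenly. At least 1 site was linked to 33 of the 40 genes (82.5%), against a background of 57.7% of all protein-coding genes. Cacna2d3 had the most with 21, followed by Cacna1d with 17, Cacna1a with 16, Cacna1e with 15, Cacna1c with 14 and Cacna1i with 10. The first 5 of these genes held 83 of the 195 links between sites and genes (42.6%). No site was linked to Cacna1f, Cacna1s, Cacna2d1, Cacng8, Scn4a, Scn7a or Scn9a. Cacna1g, Cacng1, Cacng5 and Scn2a were among the 5 genes with a single site. The density was 26.2 sites per Mb of searched sequence for the channel genes and 15.4 sites per Mb for all protein-coding genes. In every density given here, a site or sequence shared by several genes was counted once for each of them. Over all protein-coding genes, 18964 distinct sites thus gave 30843 links.

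**Figure D1:**
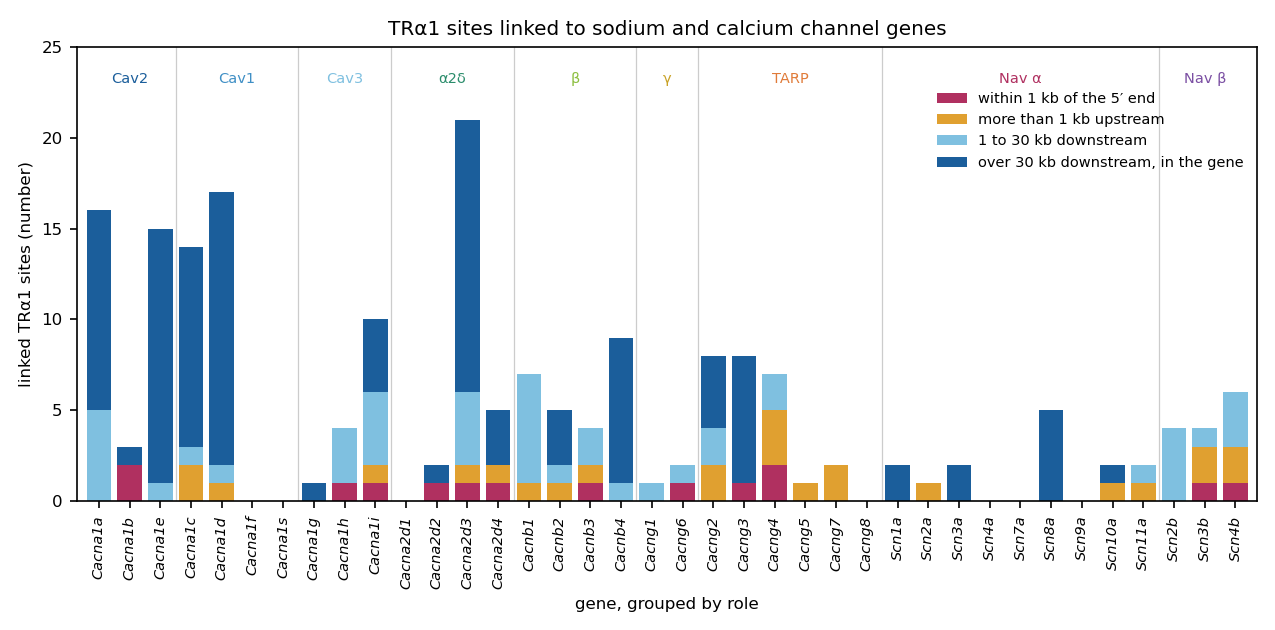
Number of linked TRα1 sites (vertical axis) for 38 of the 40 channel genes (horizontal axis), grouped by role and split by the distance of the summit from the annotated 5′ end. The tallest bars belong to Cacna2d3 (21 sites) and Cacna1d (17 sites), and most of their sites lay over 30 kb downstream of the 5′ end. The 7 genes without a bar had no site.

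The sites of the channel genes were of ordinary strength. Their fold enrichment, the ratio of ChIP pileup to local background at each summit with 1 added to both, was 7.35 in the median and ranged from 5.02 to 55.9, and the median over the whole list was 7.4. The pileup, the number of ChIP fragments over the summit, ranged from 14 to 165, and 14 was the lowest pileup of any site in the list. In 24 of the 190 sites the pileup was at this lowest value. Of the linked sites, 18 (9.47%) belonged to the strongest 10% of the list. The 3 strongest had ranks 143, 177 and 241 among the 23988 sites. For 123 of the 190 sites the nearest protein-coding 5′ end was that of a channel gene, and for the other 67 it was that of another gene.

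Few of these sites lay at the 5′ end of a gene. Within 1 kb of the annotated 5′ end there were 16 sites in 13 genes (32.5% of the 40 genes, background 23.2%). These 16 sites made up 8.42% of the linked sites, and sites at this distance made up 25.8% of those linked to any protein-coding gene. A further 15 links lay within 1 kb of another annotated transcript start of the same gene. When any transcript start was allowed, 20 of the 40 genes (50.0%) had a site within 1 kb, against 27.4% of all genes. Introns held 145 of the 195 links (74.4%), of which 49 lay in intron 1, counted on the longest transcript. Exons held 16 links, 5 of them in coding sequence, 29 links lay upstream and 5 beyond the 3′ end. Over 30 kb downstream of the 5′ end and inside the gene there were 108 links (55.4%), and 66 links lay over 100 kb downstream.

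**Figure D2:**
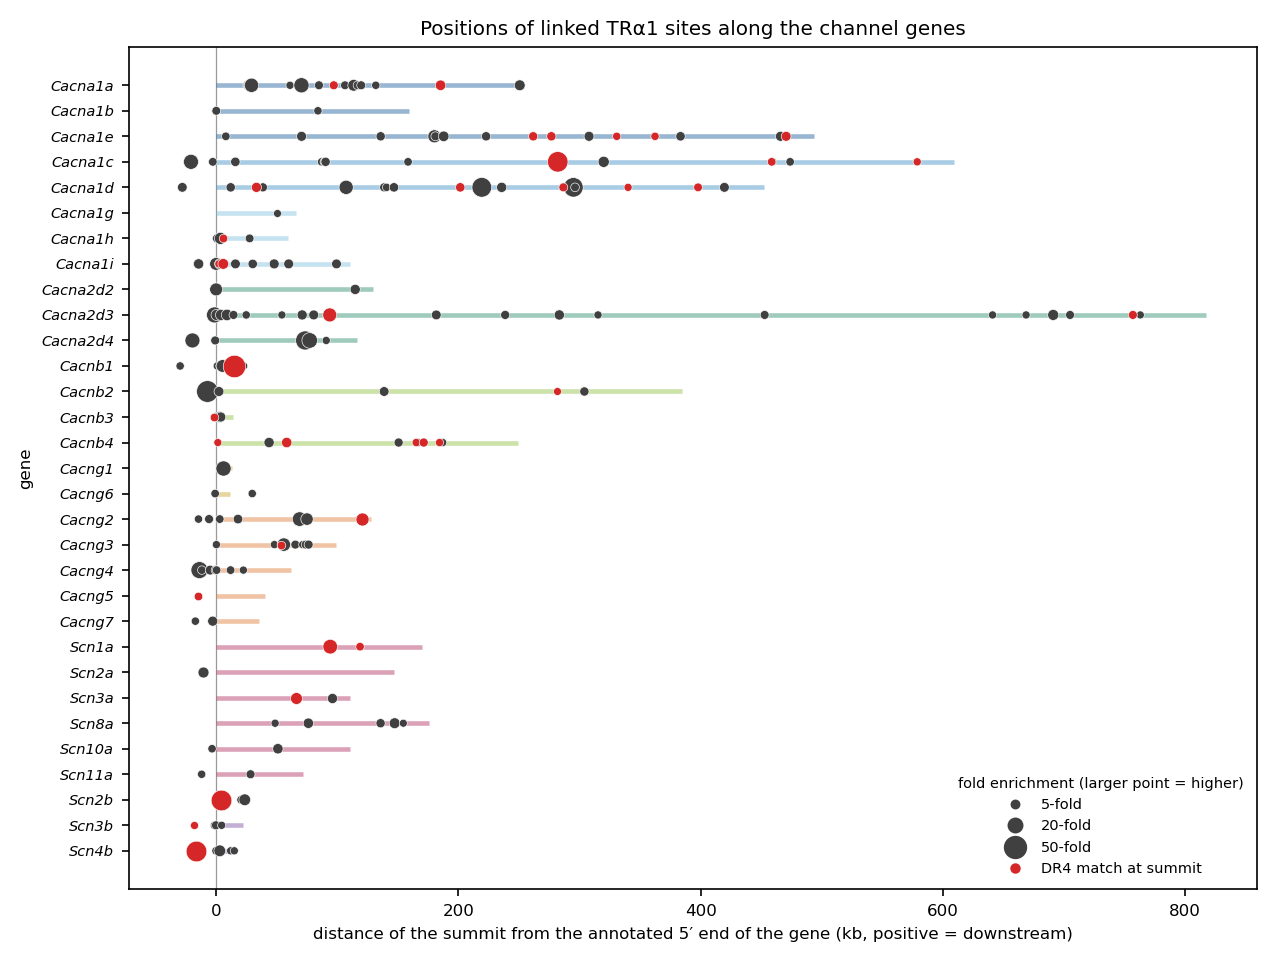
Position of each linked site relative to the annotated 5′ end of its gene (horizontal axis, kb) for 31 of the 33 genes with at least 1 site. Coloured lines show the extent of the gene, point size rises with fold enrichment, and red points have a DR4 match at the summit. Red points are spread along the bodies of Cacna1d, Cacna1e and Cacnb4, which had 5 each, and none lies within 1 kb of a 5′ end.

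Sites anywhere in a gene were counted, so the genes were also compared within classes of gene length. The channel genes had a median length of 105 kb, against 17.4 kb for all protein-coding genes. Of the genes under 30 kb, 8 of 10 channel genes had a site (background 51.4%), and of those of 30 to 100 kb, 8 of 10 had one (background 63.5%). Of the genes of 100 to 300 kb, 12 of 14 had a site (background 78.4%), and of those over 300 kb, 5 of 6 had one (background 90.8%). The share of genes with a site was therefore above the background in the 3 shorter classes and below it in the longest. The classes held 6 to 14 channel genes each, so these differences rest on few genes and were not tested. Site density gave another ordering. From the shortest to the longest class, the channel genes had 53.3, 27.9, 25.5 and 21.3 sites per Mb, and all protein-coding genes had 18.2, 16.1, 13.4 and 9.79 sites per Mb. More sites than the 90% point of their own length class were found in 17 of the 40 genes (42.5%), against 8.13% of all genes.

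**Figure D3:**
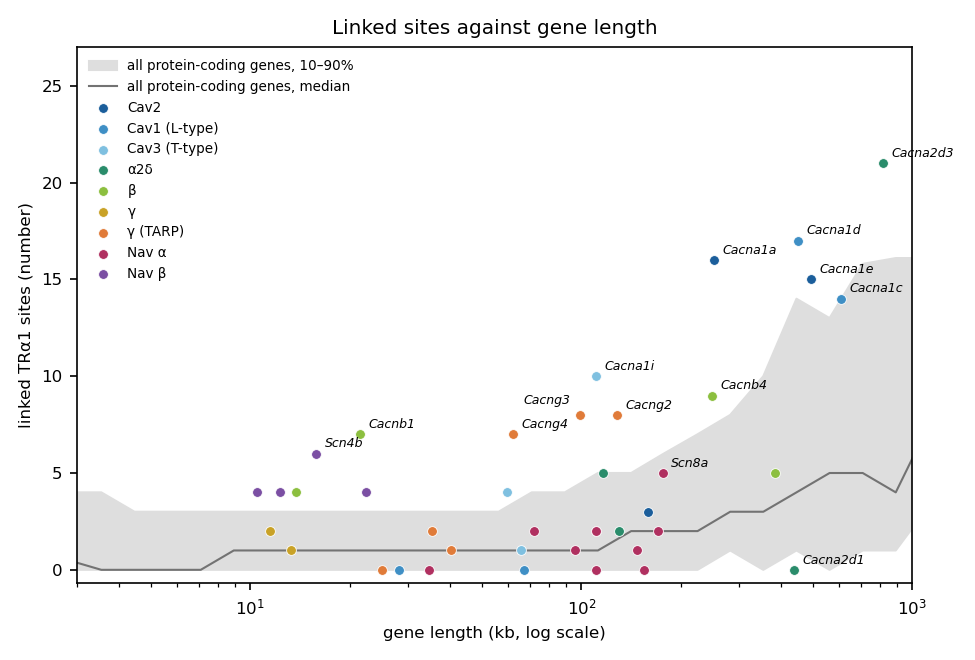
Number of linked sites (vertical axis) against gene length (horizontal axis, kb, log scale) for the 40 channel genes, coloured by role. The grey line and band give the median and the 10 to 90% range of all protein-coding genes of similar length. Cacna1a, with 16 sites in 252 kb, stands far above the band, and Cacna2d1, with 0 sites in 440 kb, lies on the floor of the plot.

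Among the Cav2 genes, which encode the pores that trigger transmitter release, 2 genes were rich in sites and 1 was not. Cacna1a (chr8:84388440-84640246, plus strand), the P/Q-type pore, had 16 sites with a fold enrichment of 5.58 to 24.5. In its length class, 6 of 1925 genes (0.312%) had as many. No site lay within 1 kb of the annotated 5′ end, but 5 sites lay side by side between 26.0 and 29.3 kb downstream of it. One of these summits lay 4 bp from the start of another Cacna1a transcript, in its exon 1, with a fold enrichment of 11.1, and the strongest of the 5, in the following intron, reached 21.5. The strongest site of the gene lay in intron 1 at 70.5 kb, in sequence of which 53.7% was repeat-masked. Cacna1e (chr1:154390731-154884501, minus strand), the R-type pore, had 15 sites, 14 of them over 30 kb downstream of its 5′ end. Their fold enrichment ranged from 5.87 to 17.5, with the highest value in intron 1 at 180 kb, and 5 had a DR4 match. Cacna1b (chr2:24603887-24763152, minus strand), the N-type pore, had 3 sites. Of these, 1 was enriched 5.54-fold at 188 bp upstream, 1 was enriched 6.79-fold in exon 1 and 1 was enriched 5.95-fold in coding exon 19.

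A DR4 match was counted when no more than 2 of its 12 half-site bases were mismatched and it lay, on either strand, within 100 bp of the summit. In the sequences printed here and in the following paragraphs, the half-sites are in capitals and the strand is that of the match. For Cacna1e, the 2 matches closest to the repeat had 1 mismatch each, and 2 other sites, in intron 6, shared the same 16 bases of half-sites and spacer, 1 of them in repeat-masked sequence.
Cacna1e, intron 39 (chr1:154413829-154413874, plus strand): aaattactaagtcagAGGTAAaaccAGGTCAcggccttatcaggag
Cacna1e, intron 5 (chr1:154622630-154622675, plus strand): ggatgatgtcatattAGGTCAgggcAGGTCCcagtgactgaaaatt
Cacna1e, intron 6, first site (chr1:154522107-154522152, plus strand): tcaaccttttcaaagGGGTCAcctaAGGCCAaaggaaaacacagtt
Cacna1e, intron 6, second site (chr1:154553660-154553705, minus strand): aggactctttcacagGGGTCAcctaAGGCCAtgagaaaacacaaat

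Of the 4 L-type genes, 2 had many sites and 2 had none. Cacna1c and Cacna1d, the L-type pores of neurons, had 14 and 17 sites, while Cacna1f, the pore of photoreceptors, and Cacna1s, that of skeletal muscle, had none. Cacna1d (chr14:30039939-30491455, minus strand) had 15 of its sites over 30 kb downstream of the 5′ end. The 2 strongest had a fold enrichment of 42.4 in intron 3, at 219 kb, and 41.7 in intron 4, at 295 kb. Neither had a DR4 match, and the 5 sites of the gene that did had a fold enrichment of 5.58 to 9.62. Cacna1c (chr6:118587240-119196418, minus strand) had 11 sites over 30 kb downstream, and for 13 of its 14 sites the nearest 5′ end was that of another gene. Its strongest site, in intron 3 at 282 kb, was enriched 46.1-fold at a pileup of 123 and had a DR4 match. A row of 4 sites, with a fold enrichment of 5.02 to 7.81, lay between 87.2 and 90.5 kb downstream. Of these, 2 lay within 1 kb of another transcript start of Cacna1c. The DR4 match at the strongest Cacna1c site is shown together with the matches of both genes that had 1 mismatch.
Cacna1c, intron 3, strongest site (chr6:118914285-118914330, minus strand): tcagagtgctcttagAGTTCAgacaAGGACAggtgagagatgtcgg
Cacna1c, intron 8 (chr6:118737671-118737716, plus strand): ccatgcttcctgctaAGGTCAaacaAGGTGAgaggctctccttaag
Cacna1d, intron 3 (chr14:30204775-30204820, minus strand): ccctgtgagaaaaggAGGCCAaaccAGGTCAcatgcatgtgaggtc
Cacna1d, intron 29 (chr14:30093491-30093536, plus strand): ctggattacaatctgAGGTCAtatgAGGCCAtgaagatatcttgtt

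The T-type genes, whose pores open near the resting potential, had few or many sites depending on the gene. Cacna1i (chr15:80287238-80398279, plus strand) had 10 sites, and 48 of 1925 genes of its length class (2.49%) had as many. The strongest lay 31 bp downstream of the 5′ end in exon 1, with 44 fragments and 16.7-fold enrichment, and the others ranged from 5.42 to 11.2. Cacna1h (chr17:25374285-25433783, minus strand) had 4 sites, all in the gene. Their fold enrichment was 7.07 in coding exon 2, 744 bp from the 5′ end, and 14.8, 6.32 and 6.7 in intron 2. Cacna1g (chr11:94408391-94474198, minus strand) had 1 site, with the lowest pileup of the list and 5.26-fold enrichment. It lay 50.0 kb downstream of the annotated 5′ end and 100 bp from another transcript start of the gene.

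The α2δ genes held both the gene with the most sites and the longest gene without one. Cacna2d3 (chr14:28904943-29721864, minus strand) had 21 sites, a number reached by 24 of all 21938 protein-coding genes. In its own length class 3.7% of the genes had as many. Its strongest site lay 1248 bp upstream of the 5′ end, with 102 fragments and 27.4-fold enrichment. Of its sites, 15 lay over 30 kb into the gene, and the strongest of those, with a DR4 match, had a fold enrichment of 20.5 in intron 2 at 93.9 kb. Cacna2d1 (chr5:15934691-16374511, plus strand), which encodes the best known binding site of gabapentin, had none in 440 kb. Among all genes over 300 kb, 9.17% had none. Its searched sequence held 47 DR4 matches. None touched a site, which follows from the gene having no site. Over all protein-coding genes, 2.41% of such matches touched one. Cacna2d2 (chr9:107399612-107529343, plus strand) had 2 sites, with a fold enrichment of 17.1 in exon 1, 90 bp from the 5′ end, and 9.89 in intron 13.
Cacna2d3, intron 2 (chr14:29627962-29628007, plus strand): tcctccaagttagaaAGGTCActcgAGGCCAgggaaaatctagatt

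Cacna2d4 (chr6:119236526-119352407, plus strand), known for its role in the retina, had 5 sites, and 3 of them were strong. Their fold enrichment was 39.8 in intron 25, 25.9 in intron 26 and 23.8 at 19.5 kb upstream. Both intronic sites lay nearer to the 5′ end of Lrtm2, at 20625 and 16895 bp, than to that of Cacna2d4. The upstream site lay between the 5′ ends of the divergent genes Cacna2d4 and Cacna1c and was linked to both. It also lay inside another gene, Dcp1b. The 2 other sites had a fold enrichment of 7.07 and 5.58.

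All 4 β subunit genes had sites, and all 4 had at least 1 with a DR4 match. The β subunits bind the α1 pore from the cytoplasm and control its trafficking and gating. The 2 strongest of all linked sites belonged to this group. Cacnb1 (chr11:98001508-98023034, minus strand) had 7 sites in and around a gene of 21.5 kb. Its strongest lay in intron 11, 14.7 kb from the 5′ end, with 150 fragments and 55.9-fold enrichment, rank 143 of the 23988 sites. Cacnb2 (chr2:14603088-14987908, plus strand) had 5 sites. The strongest lay 7074 bp upstream of the annotated 5′ end, with 165 fragments, 52.1-fold enrichment and rank 177. The other 4 ranged from 5.33 to 9.17. The plus-strand sequence from 80 bp before to 80 bp after the 2 summits is given with the half-sites of a DR4 match in capitals. The Cacnb1 summit had such a match on the minus strand with 2 mismatches, and the Cacnb2 summit had none.
Cacnb1, strongest site (chr11:98008258-98008418, plus strand): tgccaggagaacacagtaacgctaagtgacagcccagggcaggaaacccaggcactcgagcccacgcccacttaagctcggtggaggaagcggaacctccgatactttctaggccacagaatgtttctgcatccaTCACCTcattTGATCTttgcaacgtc
Cacnb2, strongest site (chr2:14595934-14596094, plus strand): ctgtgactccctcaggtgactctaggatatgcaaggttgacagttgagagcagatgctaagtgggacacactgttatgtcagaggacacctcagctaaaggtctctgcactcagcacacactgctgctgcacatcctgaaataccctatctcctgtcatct

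Cacnb4 (chr2:52428320-52676831, minus strand) had 9 sites, all in intron 2, with a fold enrichment of 5.33 to 10.4. A DR4 match was present at 5 of them, in 1 case within 100 bp of the summit but outside the called peak. Cacnb3 (chr15:98630840-98644529, plus strand), a gene of 13.7 kb, had 4 sites between 1.69 kb upstream and 3.95 kb downstream of its 5′ end. Their fold enrichment was 6.45, 8.93, 11.9 and 9.3, and 3 lay within 1 kb of an annotated transcript start. The matches of the β genes with 1 mismatch are given below.
Cacnb4, intron 2, first site (chr2:52505354-52505399, minus strand): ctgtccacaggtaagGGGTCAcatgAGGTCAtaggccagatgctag
Cacnb4, intron 2, second site (chr2:52511549-52511594, plus strand): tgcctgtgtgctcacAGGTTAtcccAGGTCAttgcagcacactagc
Cacnb2, intron 3 (chr2:14884718-14884763, plus strand): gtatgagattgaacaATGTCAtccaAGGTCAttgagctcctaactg

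In the γ family, sites were concentrated at 3 TARP genes. TARPs bind AMPA receptors and bring them to the synapse. Cacng2 (chr15:77991748-78120028, minus strand), which encodes stargazin, had 8 sites, of which the strongest had a fold enrichment of 22.3 in intron 1 at 69.0 kb. Further sites of this gene reached 17.5 in intron 2, with a DR4 match, and 15.7 in intron 1. Cacng3 (chr7:122670492-122769393, plus strand) had 8 sites, 1 of them 320 bp from its 5′ end with a fold enrichment of 5.58. The other 7 lay in intron 1 between 48.2 and 76.4 kb downstream, and the strongest reached 18.6. Cacng4 (chr11:107732357-107794557, minus strand) had 7 sites. The strongest, at 31.0, lay 13.7 kb upstream, and 2 sites lay within 1 kb of the 5′ end, with 7.44 and 6.32. One site in its intron 1, with a fold enrichment of 6.45, lay in sequence that was 92.5% repeat-masked.
Cacng3, intron 1 (chr7:122724367-122724412, plus strand): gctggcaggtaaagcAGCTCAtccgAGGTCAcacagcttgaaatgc

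The other γ genes had few sites. Cacng5 (chr11:107874605-107915055, minus strand) had 1 site 15.2 kb upstream, with a DR4 match and a fold enrichment of 6.41. Cacng7 (chr7:3332955-3368221, plus strand) had 2 upstream sites, with 9.55 at 2.73 kb and 5.95 at 17.0 kb, and its neighbour Cacng8 had none. Cacng1 (chr11:107703218-107716522, minus strand), the γ subunit of the skeletal muscle channel, had 1 site in intron 1 with 65 fragments and 24.5-fold enrichment. Cacng6 (chr7:3424195-3435667, plus strand) had a site 725 bp upstream with 6.32 and a site beyond its 3′ end with 5.95.

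The sodium channel pores had the lowest density of sites among the groups. Sites were linked to 7 of the 10 Nav α genes, at 10.1 sites per Mb, below the 15.4 sites per Mb of all protein-coding genes. The median length of the 10 genes was 111 kb, and all protein-coding genes of 100 to 300 kb had 13.4 sites per Mb. None of the sites of the 10 genes lay within 1 kb of an annotated transcript start of its gene. The 10 genes include pores best known outside central neurons. Scn1a, Scn2a, Scn3a and Scn8a encode the pores of central neurons, and their joint density was not computed. Per 100 kb of searched sequence, Scn1a had 1.0 sites, Scn2a 0.566, Scn3a 1.42 and Scn8a 2.43. Among the pores best known elsewhere, Scn10a had 1.42 and Scn11a 1.97, and Scn4a, Scn7a and Scn9a had none. Scn1a (chr2:66270778-66440840, minus strand) had 2 sites, both with a DR4 match, and their fold enrichment was 22.7 in intron 2 at 94.3 kb and 6.32 in intron 14 at 119 kb. Scn3a (chr2:65457118-65567627, minus strand) had 2 sites, with 14.3 and a DR4 match in intron 14 and 9.85 in intron 21. Scn2a (chr2:65620771-65767447, plus strand) had 1 site, 10.4 kb upstream, with 11.8. Scn8a (chr15:100869858-101045938, plus strand) had 5 sites between 48.8 and 155 kb downstream, from 5.26 to 11.5, and none had a DR4 match at its summit.
Scn1a, intron 2 (chr2:66346518-66346563, plus strand): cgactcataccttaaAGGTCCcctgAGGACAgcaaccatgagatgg
Scn3a, intron 14 (chr2:65501466-65501511, minus strand): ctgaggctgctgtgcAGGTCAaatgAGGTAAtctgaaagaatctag

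The Nav α genes best known outside central neurons had few sites or none. Scn10a (chr9:119608456-119719322, minus strand) and Scn11a (chr9:119753759-119825456, minus strand), pores of sensory neurons, had 2 sites each, with a highest fold enrichment of 10.4 and 7.13. The upstream site of Scn11a, at 5.92, lay in sequence that was 91.5% repeat-masked. Scn4a of skeletal muscle, Scn9a of sensory neurons and the atypical Scn7a had no site. Scn3a, Scn2a, Scn1a, Scn9a and Scn7a lie together on chromosome 2 in 1.33 Mb, and 5 sites were linked to them in all.

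The sodium channel β genes had the highest density, 75.0 sites per Mb, in short genes. The 18 links behind this value came from 14 distinct sites, because sites shared by Scn2b and Scn4b were counted for both genes. Scn4b (chr9:45138395-45154152, plus strand), known for its high expression in striatal projection neurons, had 6 sites, and Scn2b (chr9:45117782-45130070, plus strand), the gene next to it, had 4. All 4 sites of Scn2b were also linked to Scn4b. The strongest of them lay in intron 1 of Scn2b, 4454 bp downstream of its 5′ end and 16.2 kb upstream of that of Scn4b. It had 163 fragments, 47.2-fold enrichment, rank 241 in the list and a DR4 match on the plus strand. A site of 6.59 lay 132 bp from the 5′ end of Scn4b in exon 1, and one of 13.8 lay in its intron 1.
Scn2b and Scn4b, strongest site, 80 bp to each side (chr9:45122156-45122316, plus strand): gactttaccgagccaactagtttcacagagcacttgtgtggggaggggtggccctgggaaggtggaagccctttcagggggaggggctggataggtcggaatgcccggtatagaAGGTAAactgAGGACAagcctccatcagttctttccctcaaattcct

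Scn3b (chr9:40269217-40291618, plus strand) had 4 sites, 1 of them 1 bp from the 5′ end with a fold enrichment of 7.13. The other 3 sites of Scn3b had 5.58 to 6.32, and 1 of them, 17.9 kb upstream and 67.7% repeat-masked, had a DR4 match inside the masked sequence.

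The genes were also grouped, by a list made by hand, by where their products are best known to act. Cacnb1 and Cacnb2 were counted among the genes best known from central neurons. Their strongest sites had a fold enrichment of 55.9 and 52.1, and both genes had a DR4 site. Other placements of genes were not tried. Of the 29 genes best known from central neurons, 27 had a site (93.1%), and Cacna2d1 and Cacng8 had none. Of the 11 genes best known from other tissues, such as muscle, retina or sensory neurons, 6 had a site (54.5%), which was close to the 57.7% of all protein-coding genes. The first group had 29.0 sites per Mb and the second 11.0. DR4 matches within 100 bp of the summit were present at sites of 19 genes of the first group and of 0 genes of the second. In the second group, the Cacna2d4 site with a fold enrichment of 25.9 had a match with 2 mismatches elsewhere in its peak. The second group had 13 sites in all, and 0 of 13 allows a share of up to 22.8%, so the ranges of the 2 groups overlapped. The median length was 111 kb in the first group and 71.7 kb in the second, and the part of gene length in this comparison was not tested.

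A DR4 match was present at 36 of the 190 linked sites, or 18.9% (14.0 to 25.1%). The share was 12.9% of the sites linked to any protein-coding gene, 13.1% of all sites and 3.16% of windows of the same width 5 kb to the right of the linked sites. At least 1 site with a match was linked to 19 of the 40 genes (47.5%, background 14.1%). By gene length, such a site was linked to 5 of 10 genes under 30 kb (all genes 11.0%), 3 of 10 genes of 30 to 100 kb (13.5%), 6 of 14 genes of 100 to 300 kb (28.3%) and 5 of 6 genes over 300 kb (48.1%). Cacna1d, Cacna1e and Cacnb4 had 5 such sites each, Cacna1c had 3, and Cacna1a, Cacna1i, Cacna2d3 and Scn1a had 2 each. The remaining 11 genes, Cacna1h, Cacnb1, Cacnb2, Cacnb3, Cacng2, Cacng3, Cacng5, Scn2b, Scn3a, Scn3b and Scn4b, had 1 each, and the match of Scn2b and Scn4b was the same site. Of the 36 matches, 11 had 1 mismatch and 25 had 2, and none was free of mismatches. The centre of the match lay within 50 bp of the summit in 26 of the 36 sites. In 4 sites the match lay in repeat-masked sequence, and without these matches the share was 16.8%.

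The linked sites with a match were not the more enriched ones. Their median fold enrichment was 7.07, and it was 7.44 for the 154 linked sites without a match. Over the whole list the order was the other way, with 8.18 for sites with a match and 7.15 for those without. Of the 10 strongest linked sites, 3 had a match. These were the sites in Cacnb1, in Scn2b and in Cacna1c. The 7 without a match were those of Cacnb2 at 52.1, Cacna1d at 42.4 and 41.7, Cacna2d4 at 39.8 and 25.9, Cacng4 at 31.0 and Cacna2d3 at 27.4.

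The matches were mostly found far inside the genes. The share with a match was 0 of 16 within 1 kb of the 5′ end, which allows up to 19.4%, then 6 of 32 at 1 to 10 kb (18.8%) and 4 of 39 at 10 to 30 kb (10.3%). Over 30 kb downstream and inside the gene it was 27 of 108 (25.0%, 17.8 to 33.9%). For the sites of all protein-coding genes, the shares at these 4 distances were 6.35, 13.0, 12.7 and 15.9%. When only sites within 30 kb of a 5′ end were linked, 82 sites remained and 11.0% of them had a match. When a site was linked only to the nearest 5′ end, 123 sites remained and the share was 13.0%. The higher share of the channel genes therefore depended on the sites deep in the gene bodies, many of which were nearer to the 5′ end of another gene.

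**Figure D4:**
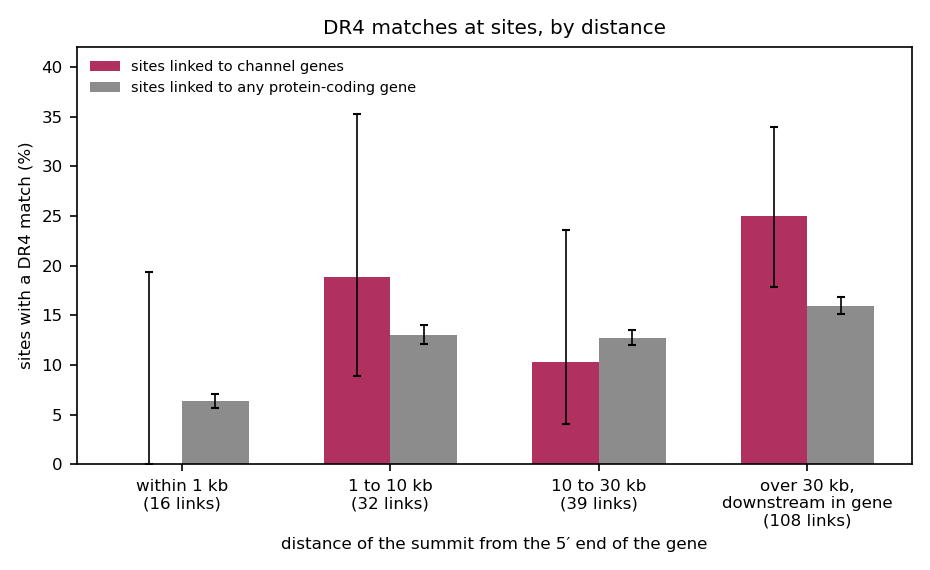
Share of sites with a DR4 match (vertical axis, %) by the distance of the summit from the 5′ end of the linked gene (horizontal axis). Red bars show sites linked to the channel genes and grey bars sites linked to any protein-coding gene, and lines are 95% Wilson intervals, for counting error. The red bar over 30 kb downstream stands at 25.0% and the grey at 15.9%, and the intervals of the other 3 pairs overlap.

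Read from the DNA side, few DR4 matches carried a site. The searched sequence of the 40 genes held 937 DR4 matches, and every gene had at least 5. Of these, 45 touched a site (4.8%, 3.61 to 6.37%), against 2.41% in the searched sequence of all protein-coding genes. Among the 82 matches with 1 mismatch, 13 touched a site (15.9%, 9.51 to 25.3%), against 5.41% for all genes. The 4 matches without a mismatch touched none, while 17.0% of such matches did so over all genes, and with 4 matches the Wilson interval of the share reached 49.0%. These 4 lay in introns of Scn2a, Cacna2d2 and Scn11a and 16.5 kb upstream of Cacna1d.
Scn2a (chr2:65761840-65761855, plus strand): AGGTCAgaaaAGGTCA
Cacna2d2 (chr9:107469383-107469398, minus strand): AGGTCAtcacAGGTCA
Scn11a (chr9:119818356-119818371, plus strand): AGGTCAcgagAGGTCA
Cacna1d (chr14:30507980-30507995, minus strand): AGGTCAgaagAGGTCA

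Other motifs were searched in the same windows without mismatches. The AP-1 motif (TGANTCA) was present at 8.95% of the linked sites and 11.5% of all sites. The GC box (GGGCGG) was present at 8.95% of the linked sites, 5.66 to 13.9%, and at 18.2% of all sites. The median GC content of the windows was 64.2% for the links within 1 kb of the 5′ end and 48.8% for those over 30 kb downstream, and the part of GC content and of distance in the GC box shares was not tested. A MEF2 motif (CTA and TAG with 4 bases between them) was present at 3.68% of the linked sites and 3.21% of all sites. The cAMP response element (TGAC followed directly by GTCA), the Egr1 motif (GCGTG followed directly by GGCG) and RE1, the element of REST, were present at 0 of the 190 linked sites. For each of these 3 motifs the share over all sites was 0.542, 0.379 and 0.075%, RE1 being searched with up to 3 mismatches.

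The same rule was applied to other genes of neuronal excitability. Over all protein-coding genes 57.7% had a site, at 15.4 sites per Mb. The median length was 30.8 kb for the potassium channel genes and 278 kb for the ionotropic glutamate receptor genes. The part of gene length in these comparisons was not tested. Of 94 potassium channel genes (Kcn symbols), 70 had a site (74.5%), at 18.8 sites per Mb, and 11.0% of their sites had a DR4 match (7.79 to 15.4%). Of 19 ionotropic glutamate receptor genes, 18 had a site (94.7%), at 14.3 sites per Mb, with a match at 10.1% (5.58 to 17.6%). The interval of each share overlapped that of the channel genes, 14.0 to 25.1%. A list of 25 genes whose products bind or regulate the channels had a median length of 177 kb. In it 20 genes had a site (80.0%), at 19.2 sites per Mb, with a match at 19.8% of the sites (13.7 to 27.8%). In that list, Ank3, which anchors sodium channels at the axon initial segment, had 16 sites. Nedd4l, a ubiquitin ligase of sodium channels, had 15, Nfasc, a cell adhesion protein of the initial segment, had 12, and Rimbp2, which ties calcium channels to release sites, had 10. The highest fold enrichment of the list was 46.1, in Rimbp2. The calmodulin genes Calm2 and Calm3 had 6 sites each. Cachd1, Fgf11, Fgf13, Gem and Stac had none.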

How the data were processed

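The striatal TRα1 ChIP-seq comprised 2 ChIP libraries and 1 input library, whose titles gave their groups. The processed data were 1 peak list. Alignment was to GRCm38. The submitters' processing notes name Bowtie2 2.3.2.2, while the methods of the study name Bowtie under another Galaxy version, and which was used was not settled. Both sources name MACS2 2.1.1.20160309.0 for peak calling, and the study removed peaks with a score under 60. Neither the pooling of the ChIP libraries nor the treatment of duplicate reads was given in the sources used here.

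The deposited pileup signal is the fragment coverage at the summit. The deposited fold enrichment is a ratio from MACS2, in which 1 is added both to the pileup and to the local background before they are divided. The deposited −log10 q-value is that of the summit, and the score of the authors is 10 times this value without its decimals. These values were used as deposited, to describe and filter sites.

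Gene coordinates were taken from GENCODE M21, without 13 mitochondrial genes, and sequences from the GRCm38 genome of RefSeq, whose lower-case letters mark repeats. A DR4 match counted as repeat-masked when at least 8 of its 16 bases were. The searched sequence of a gene was the gene and 30 kb on either side of its 5′ end. Of the sites in the list, 42.4% were at the lowest local background of 1.69 fragments, and of the linked sites 53.7%.

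Values of 2 of the 40 genes and of 1 gene of the list of channel partners are not reported here, although all counts include these genes. Every other gene with a site, the 10 strongest linked sites and the genes with a DR4 site were to be named. Of the 36 DR4 matches, those with 1 mismatch, those at the strongest sites and a pair with the same bases were printed, a narrower choice made after the values were seen. The genes, lists, motifs and alternatives were chosen with earlier results of these data known. The alternatives were other distances, scores, peak positions and mismatch limits. Scripts ran under Python 3.11.15 with pysam 0.24.0, scipy 1.17.1, pandas 2.3.3, matplotlib 3.10.9 and numpy 2.4.6, and were tested on simulated data, in which all 240 planted DR4 elements and all 1256 planted links were recovered.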

Additional observations from a re-analysis of the deposited data

How the results depend on the processing

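Of 44 alternative values for the 5 main results, 31 stayed within 1.5 times a main count or within the range of a main value, and 13 did not. The number of genes with a site was between 26 and 34 under all 9 linking rules, scores and peak positions tried, against 33. It was 30 of 40 at a score of at least 100 (45.3% of all genes) and 26 of 40 at a score of at least 200 (30.6% of all genes). The 190 linked sites fell to 124 at a score of at least 100 and to 57 at a score of at least 200, with a median fold enrichment of 9.3 and 13.8. Linking only within 30 kb of the 5′ end left 82 sites with a DR4 share of 11.0%, and linking only to the nearest 5′ end left 123 sites with 13.0%. The 13 genes with a site within 1 kb of the 5′ end became 8 within 500 bp, 20 with any transcript start and 4 at a score of at least 200. The DR4 share of 18.9% became 5.79% with at most 1 mismatch (3.11% of all sites) and 43.2% with at most 3 (38.2% of all sites). Repeat-masked matches were left out as an alternative chosen after seeing the data, which gave 16.8%. No paired analysis was possible because the list holds no values per library. Sites below the score threshold of 60 are not in the list, so weaker occupancy of the genes without a site was not measured.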

Other observations

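For some sites of related channel genes, the nearest protein-coding 5′ ends belonged to genes that are themselves related. For part of the sites of Cacnb1, Cacnb2 and Cacnb4 these were Arl5c, Arl5b and Arl5a, which encode small GTPases of 1 family. The site with the highest fold enrichment in Cacnb1, 55.9, lay 12157 bp from the 5′ end of Arl5c. In Cacnb2 and Cacnb4, the sites that were nearer to Arl5b or Arl5a lay between 64815 and 164617 bp from those 5′ ends, with a fold enrichment of 5.33 to 7.81. For part of the sites of Cacna1c and Cacna1d they were Dcp1b and Dcp1a, which encode cofactors of mRNA decapping, and 1 site in intron 1 of Cacna1d, with a fold enrichment of 7.94, lay 194 bp from the 5′ end of Dcp1a. The 5′ ends of Lrtm1 and Lrtm2 lie inside Cacna2d3 and Cacna2d4. The site nearest to Lrtm1 lay at 1347 bp with a fold enrichment of 7.07, and the site nearest to Lrtm2 lay at 3238 bp with 5.58. Nearness does not show which gene a site acts on, and no test of this was made.

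CpG content at the 5′ end was compared between channel genes with and without a site there. In the 300 bases from 250 before to 50 after the annotated 5′ end, the median number of CpG dinucleotides was 23 in the 13 genes with a site within 1 kb and 7 in the 27 genes without, and over all protein-coding genes the medians were 22 and 7. The counts ranged from 1 to 53 in the channel genes with such a site and from 1 to 48 in those without, so the 2 groups overlapped over most of their range. In the searched sequence of the channel genes, 161 of the 892 DR4 matches that touched no site lay in repeat-masked sequence, against 27.5% in that of all genes. Among the matches that touched a site, the shares were 15.6% and 14.5%.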
